A study of Mus musculus with 14 samples.

Results

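Chemokine ligands are the secreted proteins of the Ccl, Cxcl, Xcl and Cx3cl families, and their transcripts are described here across sorted cell populations of the mouse skin wound. The genes were the protein-coding entries of the count table whose symbol is Ccl or Cxcl followed by a number (with a letter from a to e allowed for Ccl), Xcl1 or Cx3cl1. This rule held 44 of 52636 genes under 39 symbols, because some symbols have more than 1 entry. They were grouped by the leukocyte that each ligand is mainly known to attract: 5 genes for neutrophils, 10 for monocytes and macrophages, 22 for lymphocytes and 7 with other or broad targets. Counts were found for 31 of the 44 genes, and 29 passed the filter on low counts and were tested.

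RNA was sequenced in 14 libraries of cells sorted from dermis by fluorescence-activated cell sorting (FACS). Per the labels, every library came from the wound bed on day 5 in male C57/BL6 mice of 7 weeks, so there was no unwounded group. There were 7 groups of 2 libraries each, in 2 sets. The new set held Adipocyte, AdipoqTraced (also called GFP in the labels) and CD26, and the reanalysed set, taken from an earlier series and titled "Young", held AP_CD9Low, AP_CD9High, CD29 and DN. Of the sort markers, Dpp4 encodes CD26, Itgb1 encodes CD29 and Cd9 encodes CD9. The file headers name CD29 as CD29-high and DN as CD29-low. What AP and DN stand for, the gates, and the alleles behind the tracing and the GFP are not in the labels. Nor do they say whether both libraries of a group are from different mice, so a p-value here measures only the spread between libraries, which may be technical. The label numbers of AP_CD9Low recur in AP_CD9High, so the 4 AP libraries may not be 4 separate samples. They also recur in CD29 and in part in DN, so libraries of different groups in this set may come from the same mice. No group is in both sets, so set and group cannot be told apart and all tests stay within a set.

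Total counts were 13760557 to 22218364 per library. Mitochondrial genome transcripts made up 79.07% and 84.79% of the counts in Adipocyte, 18.45% to 38.77% in the other 4 libraries of the new set and 0.19% to 0.94% in the reanalysed set. Levels are therefore given as CPM (reads scaled to a common library size), with the scaling factors of the TMM method (trimmed mean of M values). The 5 adipocyte markers summed to 7283 and 4659 CPM in the Adipocyte libraries and 5.21 to 86.9 CPM in all others. The 5 fibroblast markers summed to 4965 and 10990.4 CPM in Adipocyte and 33311 to 71074 CPM elsewhere. All 12 macrophage and monocyte markers were above 0 in every library, including those sorted as other cells.

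Chemokines guide leukocytes by binding receptors that couple to G proteins, and the set of receptors a leukocyte carries decides which ligands it follows. Ligands with a Glu-Leu-Arg motif before the first cysteines, such as Cxcl1, Cxcl2, Cxcl3 and Cxcl5, act on Cxcr2 and draw neutrophils. Ccl2 and Ccl7 act on Ccr2 and draw monocytes, and Cxcl9 and Cxcl10 are induced by interferon gamma and draw activated T cells through Cxcr3. In wounded skin these ligands are known to be made by resident fibroblasts and keratinocytes as well as by the leukocytes that arrive.

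The genes lie in families on few chromosomes: 12 of the 44 on chromosome 11 and 10 on chromosome 5. The 250 bases before the start site of 5 ligands of chromosome 5 are shown, because in CD26 against Adipocyte the first 3, neutrophil ligands, were called higher and the last 2, interferon-induced ligands, lower. Cxcl5, another neutrophil ligand of chromosome 5 called higher in that comparison, is not shown. The sequences are from RefSeq on GRCm38.p6, read 5′ to 3′ on the strand of the gene. They come from chr5:90890995-90891244, chr5:90903649-90903898 and chr5:90785851-90786100 on the plus strand and from chr5:92328080-92328329 and chr5:92348890-92349139 on the minus strand. Capitals mark the letters GGAATTTCC, which are of the type bound by NF-kappaB, and TTTC and TTTC with 2 bases of any kind between them, a core of the interferon-response type, on either strand.
Cxcl1: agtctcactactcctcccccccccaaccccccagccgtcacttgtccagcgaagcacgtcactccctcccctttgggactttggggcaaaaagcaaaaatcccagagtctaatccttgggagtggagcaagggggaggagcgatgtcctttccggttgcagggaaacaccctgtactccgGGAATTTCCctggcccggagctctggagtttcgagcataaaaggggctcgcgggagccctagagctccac
Cxcl2: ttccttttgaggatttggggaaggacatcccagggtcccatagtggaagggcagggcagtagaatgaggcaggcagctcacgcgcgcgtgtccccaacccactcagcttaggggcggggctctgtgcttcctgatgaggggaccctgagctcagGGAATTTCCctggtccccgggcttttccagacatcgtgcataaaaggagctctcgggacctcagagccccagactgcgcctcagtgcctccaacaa
Cxcl3: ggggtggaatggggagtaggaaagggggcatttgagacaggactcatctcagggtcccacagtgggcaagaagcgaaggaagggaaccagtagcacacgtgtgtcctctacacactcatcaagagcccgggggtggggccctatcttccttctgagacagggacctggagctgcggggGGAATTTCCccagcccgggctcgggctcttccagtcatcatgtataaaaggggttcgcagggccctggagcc
Cxcl9: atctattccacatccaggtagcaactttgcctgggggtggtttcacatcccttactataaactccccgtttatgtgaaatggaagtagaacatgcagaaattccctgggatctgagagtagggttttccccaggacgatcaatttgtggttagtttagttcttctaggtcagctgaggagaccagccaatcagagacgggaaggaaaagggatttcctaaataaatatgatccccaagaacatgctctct
Cxcl10: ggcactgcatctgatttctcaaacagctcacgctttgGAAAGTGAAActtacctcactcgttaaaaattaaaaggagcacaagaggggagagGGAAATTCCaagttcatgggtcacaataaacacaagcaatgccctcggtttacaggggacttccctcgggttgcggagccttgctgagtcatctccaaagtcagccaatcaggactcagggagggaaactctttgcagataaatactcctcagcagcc
The letters GGAATTTCC stood 70 bases before the start site in Cxcl1, 96 in Cxcl2 and 72 in Cxcl3. In Cxcl10 they stood on the other strand, read as GGAAATTCC, 158 bases before the start. Among the 27 chemokine symbols with a promoter in the RefSeq table these 4 held the letters, against 0.29% of all 32851 promoters of this length. The interferon-response core was found in Cxcl10 (as GAAAGTGAAA, 213 bases before the start), Ccl19 and Cxcl14, and in 2.98% of all promoters. Cxcl9 held neither in this window. Cxcl5 was not among the symbols found with either pattern, and whether it had a promoter in the RefSeq table is not given here. Of 12 letter patterns searched, these 2 were chosen after the sequences had been seen, and a match describes the letters alone.

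Over all 44 genes and with TMM scaling, summed chemokine levels were lowest in Adipocyte within the new set and highest in the AP groups within the reanalysed set. The sum was 2739.9 and 2282 CPM in Adipocyte, 4653 and 3920.5 CPM in AdipoqTraced and 7025 and 6304 CPM in CD26. In the reanalysed set it was 10281 and 11063 CPM in AP_CD9Low, 10398 and 10314 CPM in AP_CD9High, 6689.5 and 4764 CPM in CD29 and 9426 and 7312 CPM in DN. Within each set the groups stood apart in this sum, except that AP_CD9High lay within the range of AP_CD9Low. In bulk samples such as these, fewer cells of a type and less RNA per cell cannot be told apart. As a share of all counts the ligands took 0.0546% to 0.0827% in Adipocyte and 0.443% to 1.40% elsewhere, and outside the mitochondrial genome 0.395% and 0.359% in Adipocyte and 0.605% to 1.40% elsewhere. By share of all counts DN, at 1.39% and 1.13%, overlapped the AP libraries, at 1.31% to 1.40%.

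The mix of ligands also differed. Neutrophil ligands took 47.7 to 65.2% of the chemokine counts in all 14 libraries. Monocyte ligands took 11.9 and 25.3% in Adipocyte and 29.8 to 39.9% elsewhere. Lymphocyte ligands took 27.9 and 25.3% in Adipocyte, 9.59 and 9.15% in AdipoqTraced and 2.38 to 7.99% in the other groups. A single gene, Cxcl1, held 26.8 to 45.6% of the chemokine counts.

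**Figure D1:**
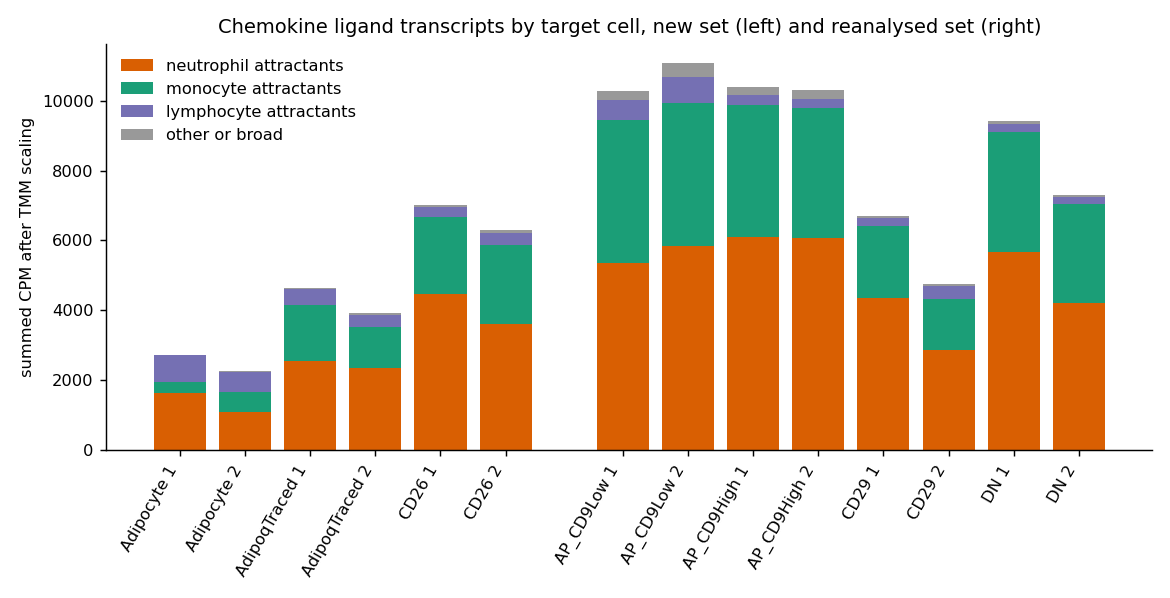
Summed chemokine ligand levels in each of the 14 libraries (CPM after TMM scaling, linear axis from 0), stacked by the leukocyte the ligands attract, with the new set on the left and the reanalysed set on the right. The Adipocyte bars are the shortest, at 2282.0 and 2739.9 CPM, and have the widest lymphocyte segment relative to their height, at 25.3% and 27.9% of chemokine counts.

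Per length of transcript (CPM per kilobase of exon, group mean), Cxcl1 was the highest chemokine ligand in 6 of the 7 groups, from 560.4 in Adipocyte to 2240.3 in AP_CD9High. In AP_CD9Low, Ccl7 was higher, at 2759.5 CPM per kilobase against 2102.6 for Cxcl1. The second place per length was held by Cxcl10 in Adipocyte, Ccl2 in AdipoqTraced and CD26, Ccl7 in AP_CD9High and CD29, and Cxcl2 in DN.

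The design gave 7 comparisons, each written as the first group minus the second, and calls were made at an adjusted p under 0.05 (edgeR's quasi-likelihood test with Benjamini-Hochberg adjustment over 18394 genes). In AdipoqTraced against Adipocyte, 9 of the 29 tested ligands were called higher, where 7.5% of all genes were, and 1 lower, where 3.75% were. In CD26 against Adipocyte, 11 were called higher (6.76% of all genes) and 2 lower (4.31%). Both comparisons share the Adipocyte libraries. In a fit of the new set alone, 4 of these calls were lost in AdipoqTraced (Cxcl2, Cxcl10, Ccl3 and Ccl8) and 2 in CD26 (Ccl3 and Ccl11). With CPM on the total count alone, 16 were higher and 0 lower in each of the 2. In AdipoqTraced against CD26, none was called higher (1.35% of all genes) and 1 lower (0.511%), with 7 of 29 at an unadjusted p under 0.05. The share of all genes at that unadjusted threshold is not given here, so the last count has no background to be read against.

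Within the reanalysed set, AP stands for the mean of AP_CD9Low and AP_CD9High. In CD29 against AP, 1 ligand was called higher (1.07% of all genes) and 5 lower (1.01%). In DN against AP, which shares the AP libraries, 8 were called higher (2.29%) and 4 lower (1.08%). With CPM on the total count alone, CD29 against AP had 4 higher and 4 lower. Without CD29 replicate 2, 3 ligands were called in CD29 against AP, and in DN against AP 7 were called without DN replicate 1 and 6 without DN replicate 2. No ligand was called in AP_CD9High against AP_CD9Low or in CD29 against DN, where 0.0109% of all genes were called in each. The median log2 fold change of the 29 ligands was 1.0 in AdipoqTraced against Adipocyte, 1.34 in CD26 against Adipocyte, 0.65 in CD29 against AP and 0.94 in DN against AP, beside all-gene medians of 0.20, 0.25, 0.10 and 0.00.

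Scaling matters most for the adipocytes. With CPM on the total count alone, the all-gene median against Adipocyte moved from 0.20 to 2.25 for AdipoqTraced and from 0.25 to 1.96 for CD26, and log2 fold changes in these comparisons are read relative to that shift.

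**Figure D2:**
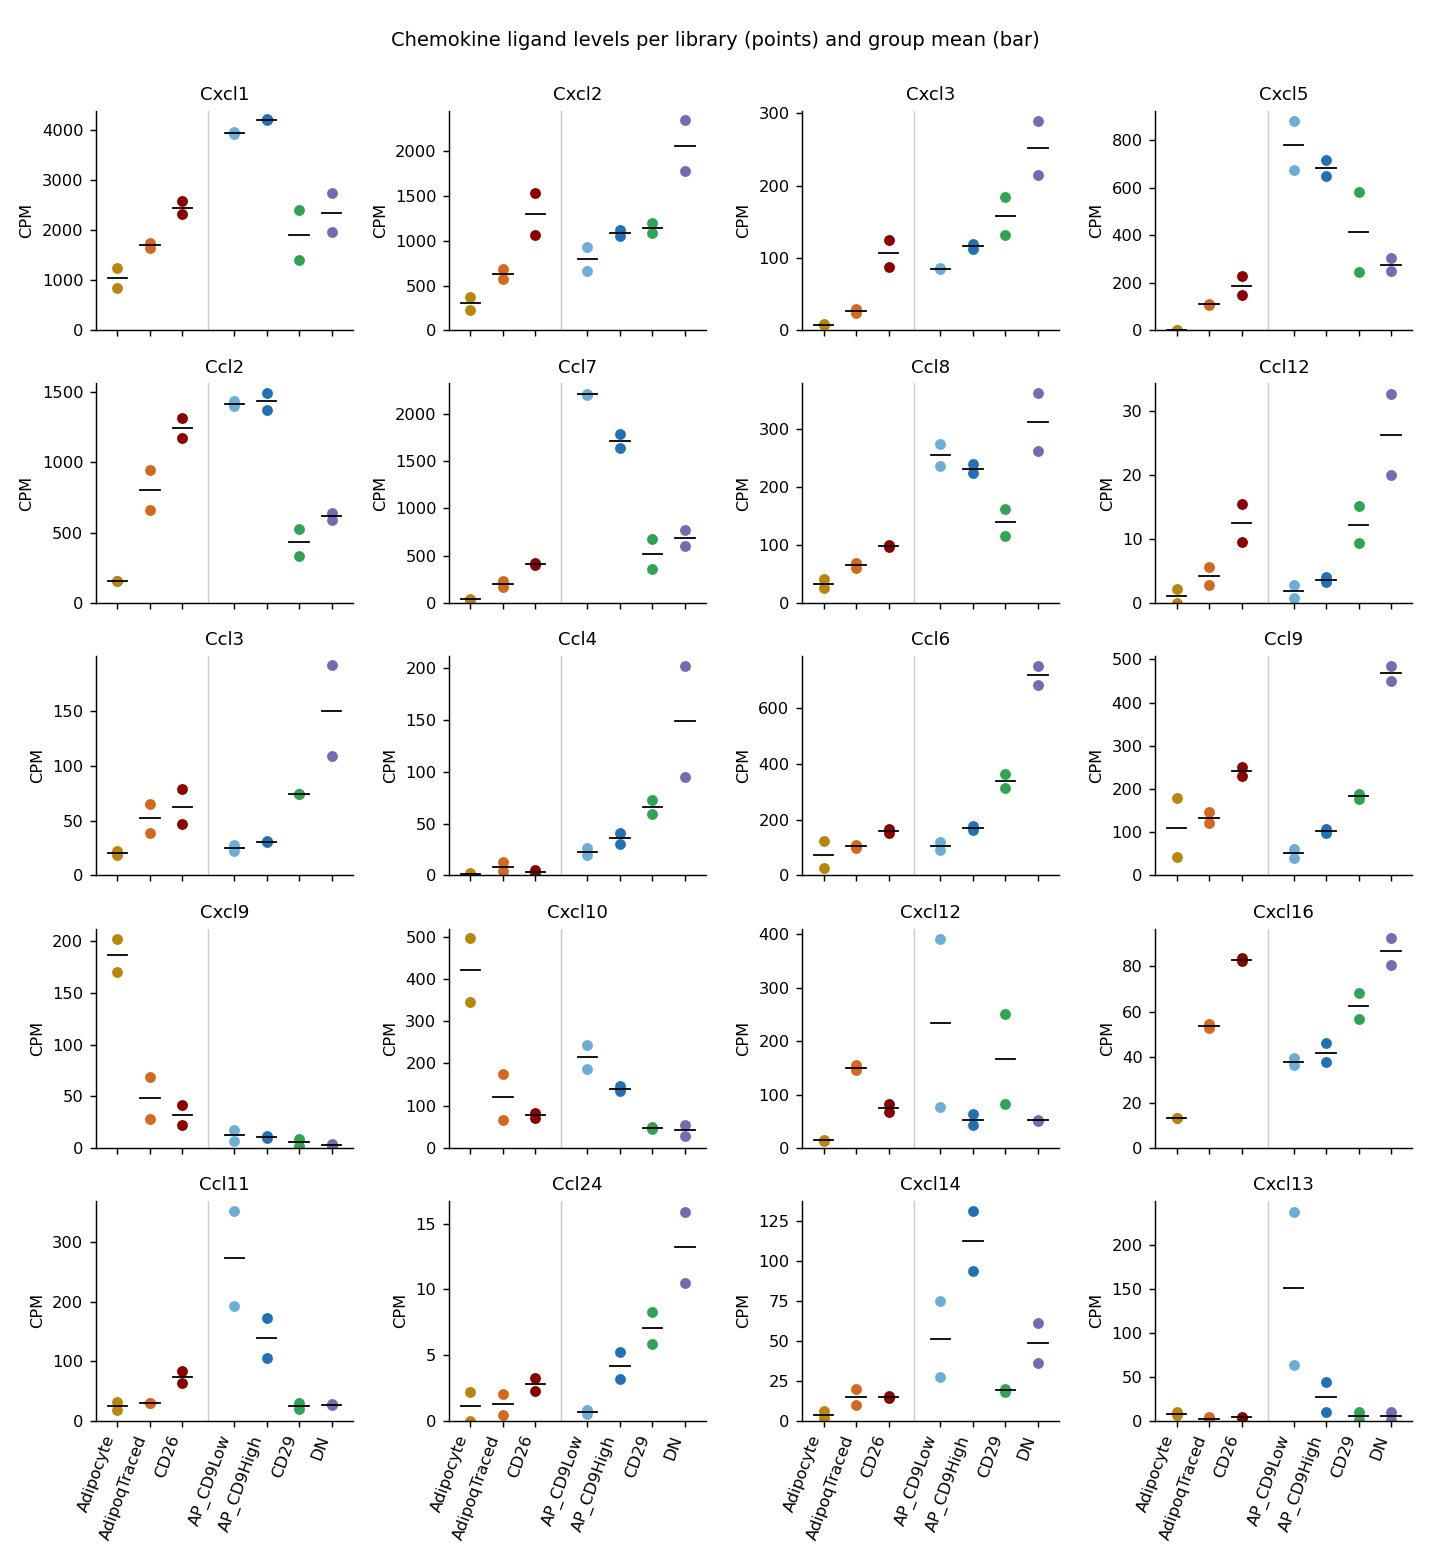
Levels of 20 chemokine ligands in every library (points, CPM after TMM scaling, linear axes from 0 with a separate scale per gene) and the mean of each group (bar), with a grey line between the new and the reanalysed set. Within the reanalysed set, Cxcl1, Ccl2 and Ccl7 are highest in the AP groups and Ccl3, Ccl4, Ccl6 and Ccl9 in DN. Within the new set, Cxcl9 and Cxcl10 are highest in Adipocyte, which depends on the scaling. With CPM on the total count alone, the mean in AdipoqTraced was higher than in Adipocyte for Cxcl10 (133.7 against 116.0) and Cxcl9 (54.0 against 50.9).

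Among the neutrophil ligands, all 4 tested genes were called higher in CD26 than in Adipocyte, and 3 of 4 in AdipoqTraced. Cxcl1 (chromosome 5, 90891241 to 90893115), a main neutrophil attractant of mouse tissue and per length the highest ligand of its class in every group, was at 1250.0 and 852 CPM in Adipocyte, 1743 and 1646 CPM in AdipoqTraced and 2577 and 2314 CPM in CD26. The 3 groups did not overlap. Cxcl1 was called in CD26 against Adipocyte (log2 fold change 1.22, SE 0.26, adjusted p = 0.00739) and not in AdipoqTraced against Adipocyte (log2 fold change 0.69, SE 0.26, adjusted p = 0.115).

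Cxcl2 (chromosome 5, 90903871 to 90905938), also a Cxcr2 ligand and made by macrophages among others, was at 373 and 227 CPM in Adipocyte, 681 and 569.8 CPM in AdipoqTraced and 1529 and 1059 CPM in CD26. It stepped up between groups without overlap, and was called in CD26 (log2 fold change 2.11, SE 0.28, adjusted p = 0.000233) and in AdipoqTraced cells (log2 fold change 1.06, SE 0.28, adjusted p = 0.0227), both against Adipocyte. The latter call was lost without Adipocyte replicate 2 or AdipoqTraced replicate 1 (log2 fold change 0.80 to 0.93, adjusted p = 0.0783 to 0.126). Cxcl3 (chromosome 5, 90786103 to 90789600), a close relative of both, was at 7.28 and 8.21 CPM in Adipocyte, 29.4 and 23.7 CPM in AdipoqTraced and 125 and 87.7 CPM in CD26. It was called in AdipoqTraced against Adipocyte (log2 fold change 1.77, SE 0.30, adjusted p = 0.00134) and in CD26 against Adipocyte (log2 fold change 3.78, SE 0.32, adjusted p = 5.27e-06). Cxcl3 was also the only ligand called between AdipoqTraced and CD26 (log2 fold change -2.0, SE 0.29, adjusted p = 0.00589), and that call was lost in a fit of the new set alone (-2.0, adjusted p = 0.202).

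Cxcl5 (chromosome 5, 90759360 to 90761624), a neutrophil attractant known from epithelial and stromal cells, was nearly without counts in adipocytes, with 0 and 12 reads. Its level was 0 and 2.35 CPM in Adipocyte, 107 and 112 CPM in AdipoqTraced and 227 and 148 CPM in CD26. The call was made in AdipoqTraced against Adipocyte (log2 fold change 6.45, SE 0.73, adjusted p = 7.27e-05) and in CD26 against Adipocyte (log2 fold change 7.23, SE 0.74, adjusted p = 3.3e-05). With so few reads in Adipocyte, the size of these fold changes depends on the count added by the fit. The fifth gene of the class, Cxcl15, known from lung, had 33 reads in the second AdipoqTraced library and 0 in all others, and was not tested.

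Among the reanalysed libraries the neutrophil ligands split. Cxcl1 was at 3927 and 3958 CPM in AP_CD9Low and 4212 and 4189 CPM in AP_CD9High, against 2394 and 1395 CPM in CD29 and 2737 and 1962 CPM in DN. Every AP library was above every CD29 and DN library. Cxcl1 was lower in CD29 than in AP (log2 fold change -1.10, SE 0.24, adjusted p = 0.0252), a call lost without CD29 replicate 2 (log2 fold change -0.75, adjusted p = 0.368) and with CPM on the total count alone (-0.81, adjusted p = 0.12). In DN against AP it was not called (log2 fold change -0.79, SE 0.23, adjusted p = 0.0945).

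Cxcl2 and Cxcl3 were highest in DN. Cxcl2 was at 659 and 934 CPM in AP_CD9Low, 1058 and 1124 CPM in AP_CD9High, 1202 and 1088 CPM in CD29 and 2342 and 1777 CPM in DN. Cxcl3 was at 86.2 and 84.6 CPM in AP_CD9Low, 119.7 and 112 CPM in AP_CD9High, 184 and 132 CPM in CD29 and 289 and 215 CPM in DN. Both DN libraries lay above all others of the set for either gene. Both were called in DN against AP, Cxcl2 at 1.14 (SE 0.23, adjusted p = 0.0115) and Cxcl3 at 1.34 (SE 0.23, adjusted p = 0.00448). The call of Cxcl2 was lost without DN replicate 1 (log2 fold change 0.93, adjusted p = 0.157), and that of Cxcl3 without DN replicate 1 (log2 fold change 1.10, adjusted p = 0.113). In CD29 against AP, Cxcl2 (log2 fold change 0.30, SE 0.23, adjusted p = 0.792) was not called.

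The ratio of Cxcl2 to Cxcl1 CPM, which sets the same 2 genes against each other in each library, was 0.168 to 0.268 in the 4 AP libraries, 0.502 and 0.780 in CD29 and 0.856 and 0.906 in DN. In the new set it was 0.267 to 0.593. Cxcl5 was at 648 to 878 CPM in the AP libraries, 581 and 245 CPM in CD29 and 305 and 248 CPM in DN, and was not called in any comparison of the reanalysed set.

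Among the monocyte ligands, the Ccr2 ligands Ccl2 and Ccl7 separated adipocytes from the other cells of the new set and AP from CD29 and DN. Ccl2 (chromosome 11, 82035571 to 82037453), the main ligand that draws monocytes from blood, was at 159 and 156 CPM in Adipocyte, 944 and 662 CPM in AdipoqTraced and 1174 and 1313 CPM in CD26. Ccl7 (chromosome 11, 82045712 to 82047525), its neighbour and a second Ccr2 ligand, was at 40.6 and 34.8 CPM in Adipocyte, 233 and 169.9 CPM in AdipoqTraced and 419.8 and 402 CPM in CD26. For both genes the 3 groups did not overlap, with Adipocyte lowest and CD26 highest.

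Against Adipocyte, Ccl2 was higher in AdipoqTraced cells (log2 fold change 2.35, SE 0.25, adjusted p = 2.94e-05) and in CD26 (log2 fold change 2.98, SE 0.25, adjusted p = 5.27e-06). Ccl7 was likewise higher in AdipoqTraced cells (log2 fold change 2.42, SE 0.29, adjusted p = 7.94e-05) and in CD26 (log2 fold change 3.45, SE 0.30, adjusted p = 6.09e-06). These 4 calls were kept in every alternative setting. Between AdipoqTraced and CD26 neither passed the threshold, Ccl2 at -0.63 (SE 0.23, adjusted p = 0.234) and Ccl7 at -1.03 (SE 0.27, adjusted p = 0.0756).

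In the reanalysed set, Ccl2 was at 1437 and 1398 CPM in AP_CD9Low, 1374 and 1495 CPM in AP_CD9High, 524 and 337 CPM in CD29 and 642 and 589 CPM in DN. Ccl7 was at 2206 and 2215 CPM in AP_CD9Low, 1791 and 1644 CPM in AP_CD9High, 672 and 356 CPM in CD29 and 768 and 608 CPM in DN. All 4 AP libraries were above all CD29 and DN libraries for both. In CD29 against AP both were lower, Ccl2 at -1.73 (SE 0.22, adjusted p = 0.000677) and Ccl7 at -1.92 (SE 0.26, adjusted p = 0.000908) on the log2 scale, in every alternative setting. In DN against AP both were lower too, Ccl2 at -1.21 (SE 0.21, adjusted p = 0.00531) and Ccl7 at -1.50 (SE 0.25, adjusted p = 0.00359). These DN calls were lost, for Ccl2, without DN replicate 2 (log2 fold change -1.15, adjusted p = 0.0708) and, for Ccl7, without DN replicate 2 (log2 fold change -1.34, adjusted p = 0.0557).

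The ratio of Ccl7 to Ccl2 CPM was 0.223 to 0.358 in the 6 libraries of the new set and 1.03 to 1.58 in the 8 of the reanalysed set. It lay at 1.54 and 1.58 in AP_CD9Low, 1.304 and 1.10 in AP_CD9High, 1.28 and 1.06 in CD29 and 1.20 and 1.03 in DN. This difference lies between the sets, where set and group cannot be told apart.

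Ccl3, which acts on Ccr1, and its relative Ccl4 are known chiefly from macrophages and other leukocytes. Ccl3 (chromosome 11, 83647844 to 83649355) was at 22.3 and 18.8 CPM in Adipocyte, 65.1 and 38.96 CPM in AdipoqTraced and 78.6 and 46.6 CPM in CD26. Adipocyte lay below the other 2 groups, which overlapped. It was called in AdipoqTraced cells (log2 fold change 1.34, SE 0.38, adjusted p = 0.0355) and in CD26 (log2 fold change 1.61, SE 0.38, adjusted p = 0.0134), both against Adipocyte. The AdipoqTraced call was lost without Adipocyte replicate 1, Adipocyte replicate 2 or AdipoqTraced replicate 1 (log2 fold change 0.93 to 1.54, adjusted p = 0.0716 to 0.252), and the CD26 call without CD26 replicate 1 (log2 fold change 1.20, adjusted p = 0.123).

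Within the reanalysed set, Ccl3 was at 22.6 and 27.4 CPM in AP_CD9Low, 31.3 and 30.02 CPM in AP_CD9High, 74.03 and 74.2 CPM in CD29 and 191 and 109 CPM in DN. The AP, CD29 and DN libraries did not overlap. Ccl3 was higher in DN than in AP in every alternative setting (log2 fold change 2.44, SE 0.31, adjusted p = 0.000552). It was also called in CD29 against AP (log2 fold change 1.42, SE 0.31, adjusted p = 0.0263), but not without any 1 of the 4 AP or 2 CD29 libraries (log2 fold change 1.34 to 1.49, adjusted p = 0.0519 to 0.17). Ccl4 (chromosome 11, 83662584 to 83664683) was at 19.4 to 40.95 CPM in the AP libraries, 58.9 and 72.8 CPM in CD29 and 201 and 95.2 CPM in DN. The call was in DN against AP (log2 fold change 2.37, SE 0.59, adjusted p = 0.0406), but not without any 1 of the 4 AP or 2 DN libraries (log2 fold change 1.73 to 2.82, adjusted p = 0.0755 to 0.502).

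Ccl6 and Ccl9 are Ccr1 ligands of rodents that are abundant in macrophages and other myeloid cells. Ccl6 (chromosome 11, 83587882 to 83593087) was at 119 and 90.1 CPM in AP_CD9Low, 176 and 163 CPM in AP_CD9High, 365 and 313 CPM in CD29 and 752 and 684 CPM in DN. Ccl9 (chromosome 11, 83572919 to 83578636) was at 62.3 and 39.8 CPM in AP_CD9Low, 106 and 97.5 CPM in AP_CD9High, 189 and 178 CPM in CD29 and 486 and 451 CPM in DN. Both genes stood in the same order, AP_CD9Low, AP_CD9High, CD29, DN, with no overlap between these groups.

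Both were called in DN against AP, Ccl6 at 2.43 (SE 0.37, adjusted p = 0.00183) and Ccl9 at 2.70 (SE 0.37, adjusted p = 0.00101). No single library, when left out, ended either call. The call of Ccl6 was lost with a replicate block by label number. In the new set the 2 Adipocyte libraries differed widely, with Ccl6 at 27.5 and 122 CPM and Ccl9 at 42.5 and 179 CPM. The CD26 libraries were at 165 and 154 CPM for Ccl6 and 252 and 230.0 CPM for Ccl9, and neither gene was called against Adipocyte (Ccl6, log2 fold change 1.09, SE 0.45, adjusted p = 0.154; Ccl9, log2 fold change 1.12, SE 0.45, adjusted p = 0.147).

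Ccl12 (chromosome 11, 82101845 to 82103400), a Ccr2 ligand of the mouse, was low, at 0.824 to 4.09 CPM in the AP libraries and 19.9 and 32.6 CPM in DN. It was called in DN against AP (log2 fold change 3.35, SE 0.86, adjusted p = 0.0484), but not without any 1 of the 4 AP or 2 DN libraries (log2 fold change 2.95 to 3.90, adjusted p = 0.0627 to 0.328). Ccl8 (chromosome 11, 82115185 to 82116799), placed with this class by its family although in the mouse it acts on Ccr8, was at 25.6 and 41.4 CPM in Adipocyte, 69.2 and 60.5 CPM in AdipoqTraced and 99.9 and 96.99 CPM in CD26. The 3 groups did not overlap. Ccl8 was higher in CD26 than in Adipocyte (log2 fold change 1.55, SE 0.29, adjusted p = 0.00255) and in AdipoqTraced than in Adipocyte (log2 fold change 0.95, SE 0.28, adjusted p = 0.0458), the latter not without Adipocyte replicate 1, AdipoqTraced replicate 1 or AdipoqTraced replicate 2 (log2 fold change 0.71 to 1.05, adjusted p = 0.0695 to 0.194). Among the reanalysed libraries Ccl8 was at 225 to 274 CPM in AP, 162 and 116 CPM in CD29 and 363 and 263 CPM in DN, with no call.

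Ccl5 and Cx3cl1 completed the monocyte ligands and were called in no comparison. Ccl5, known from T cells and activated macrophages, was at 9.63 and 19.5 CPM in Adipocyte and 1.05 to 6.68 CPM elsewhere. Cx3cl1, a membrane-bound ligand of Cx3cr1, was at 0 to 12.7 CPM over the 14 libraries.

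**Figure D3:**
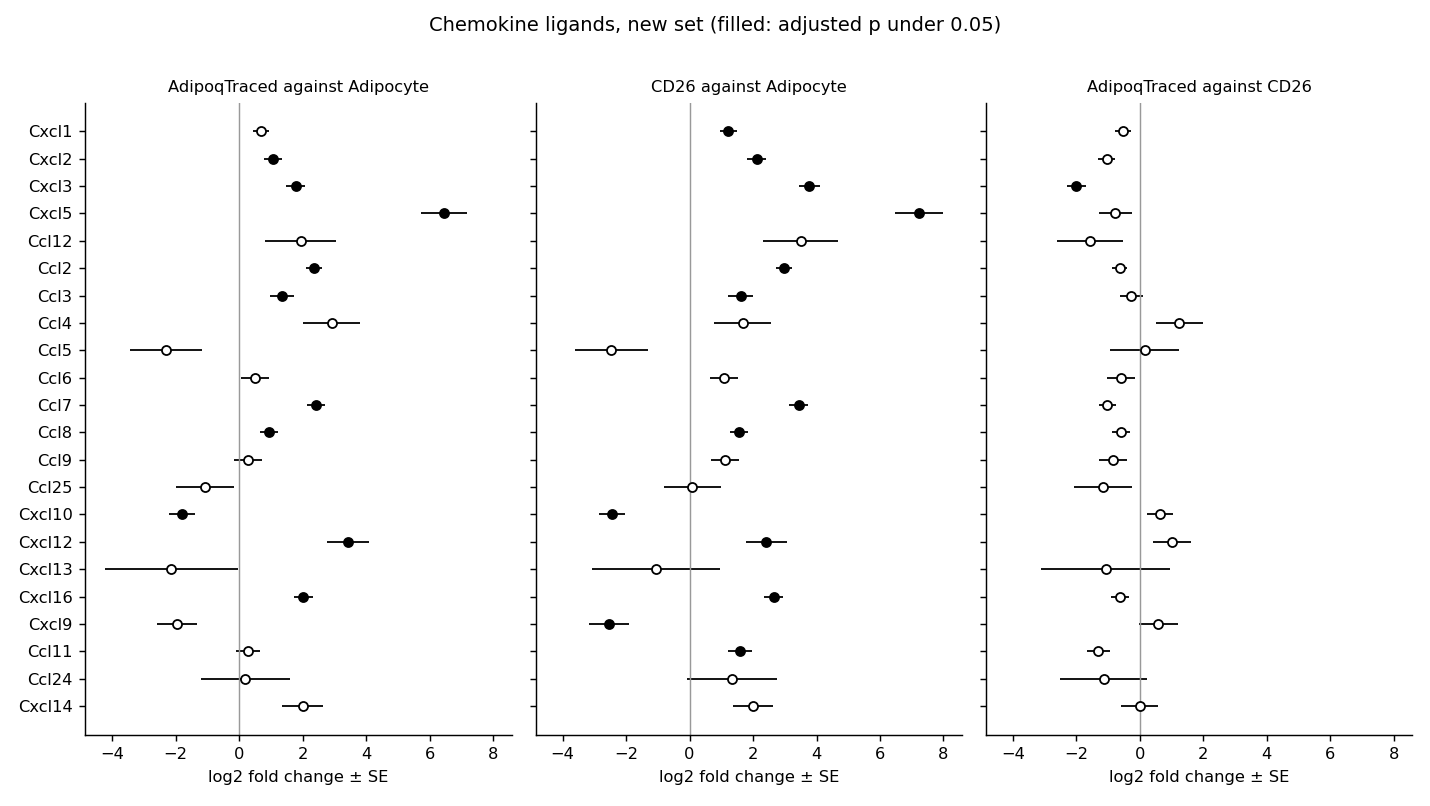
Log2 fold changes (points) with SE (bars) of 22 chemokine ligands in the 3 comparisons of the new set, on a common linear axis; filled points have an adjusted p under 0.05, and 7 ligands of low level are left out. Neutrophil and monocyte ligands lie mostly to the right of 0 against Adipocyte, Cxcl9 and Cxcl10 to the left, and in AdipoqTraced against CD26 Cxcl3 alone is filled, at -2.0.

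The lymphocyte ligands did not move together: in CD26 against Adipocyte 2 of 12 tested genes were higher and 2 lower, and in AdipoqTraced against Adipocyte 2 were higher and 1 lower. The lower ones were the interferon-induced Cxcr3 ligands. Cxcl10 (chromosome 5, 92346638 to 92348889) was at 496 and 345 CPM in Adipocyte, 175 and 66.3 CPM in AdipoqTraced and 71.5 and 83.6 CPM in CD26. Adipocyte lay above the other 2 groups, which overlapped. Against Adipocyte, Cxcl10 was lower in CD26 (log2 fold change -2.44, SE 0.42, adjusted p = 0.00149) and in AdipoqTraced cells (log2 fold change -1.80, SE 0.41, adjusted p = 0.0104), but with CPM on the total count alone the AdipoqTraced value reversed (0.21, adjusted p = 0.722) and the CD26 value missed the threshold (-0.78, adjusted p = 0.163). The AdipoqTraced call was also lost without Adipocyte replicate 1 or AdipoqTraced replicate 2 (log2 fold change -1.45 to -1.26, adjusted p = 0.0638 to 0.0698).

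Cxcl9 (chromosome 5, 92321347 to 92328079) was at 202 and 170.2 CPM in Adipocyte, 27.9 and 68.5 CPM in AdipoqTraced and 22.6 and 41.8 CPM in CD26, again with Adipocyte above both other groups. It was lower in CD26 than in Adipocyte (log2 fold change -2.53, SE 0.64, adjusted p = 0.019), but not with CPM on the total count alone (-0.87, adjusted p = 0.316) and not without Adipocyte replicate 1 or CD26 replicate 1 (log2 fold change -2.31 to -2.14, adjusted p = 0.086 to 0.146). Cxcl10 shares its locus with Art3 on the opposite strand, whose level was likewise highest in Adipocyte, at 95.8 and 50.6 CPM in Adipocyte and 3.70 to 23.2 CPM elsewhere. The strand setting of the counting is not given in the sources used here, so reads of the 2 genes may not be told apart, and the part of Art3 in the Cxcl10 values was not tested.

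Cxcl10 was also called in the reanalysed set. It was at 187 and 243 CPM in AP_CD9Low, 134 and 145 CPM in AP_CD9High, 49.4 and 46.04 CPM in CD29 and 54.6 and 28.96 CPM in DN. All AP libraries lay above all CD29 and DN libraries. Cxcl10 was lower than in AP in CD29 (log2 fold change -1.86, SE 0.38, adjusted p = 0.0191) and in DN (log2 fold change -2.05, SE 0.38, adjusted p = 0.00721). The CD29 call was lost without CD29 replicate 1 or CD29 replicate 2 (log2 fold change -1.91 to -1.80, adjusted p = 0.12 to 0.167), and the DN call without DN replicate 2 (log2 fold change -1.66, adjusted p = 0.0955). Cxcl9 was low throughout this set, at 2.36 to 17.5 CPM, with no call.

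Cxcl12 (chromosome 6, 117168535 to 117181367), the Cxcr4 ligand made by stromal cells, was at 12.2 and 15.8 CPM in Adipocyte, 155 and 146 CPM in AdipoqTraced and 66.8 and 82.9 CPM in CD26. Here AdipoqTraced was the highest group and nothing overlapped. Cxcl12 was higher than in Adipocyte in AdipoqTraced cells (log2 fold change 3.42, SE 0.67, adjusted p = 0.00401) and in CD26 (log2 fold change 2.41, SE 0.64, adjusted p = 0.0269). The AdipoqTraced call was lost without Adipocyte replicate 1 (log2 fold change 3.31, adjusted p = 0.0735), and the CD26 call without Adipocyte replicate 1, Adipocyte replicate 2, CD26 replicate 1 or CD26 replicate 2 (log2 fold change 2.29 to 2.70, adjusted p = 0.082 to 0.203). In the reanalysed set 2 libraries stood out within their groups, with Cxcl12 at 76.6 and 392 CPM in AP_CD9Low and 82.3 and 251 CPM in CD29, beside 63.6 and 42.7 CPM in AP_CD9High and 52.9 and 50.6 CPM in DN.

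Cxcl16 (chromosome 11, 70453983 to 70459984), a membrane-bound ligand of Cxcr6, was at 13.2 and 13.3 CPM in Adipocyte, 52.9 and 54.7 CPM in AdipoqTraced and 83.8 and 82.1 CPM in CD26. Replicates were close and the groups of the new set did not overlap, with Adipocyte lowest and CD26 highest. Between AdipoqTraced and CD26 there was no call. Cxcl16 was higher than in Adipocyte in AdipoqTraced cells (log2 fold change 2.02, SE 0.30, adjusted p = 0.000448) and in CD26 (log2 fold change 2.65, SE 0.30, adjusted p = 5.79e-05), in every alternative setting. Within the reanalysed set it was at 36.4 to 46.01 CPM in AP, 56.7 and 68.4 CPM in CD29 and 92.6 and 80.7 CPM in DN. Cxcl16 was called in DN against AP (log2 fold change 1.12, SE 0.23, adjusted p = 0.015), but not without any 1 of the 4 AP or 2 DN libraries (log2 fold change 1.01 to 1.22, adjusted p = 0.0535 to 0.254).

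None of the other lymphocyte ligands was called, and those other than Cxcl13 were low or absent. Cxcl13, the B-cell ligand of Cxcr5, was at 238 and 63.1 CPM in AP_CD9Low and 43.7 and 9.16 CPM in AP_CD9High, against 0 to 9.91 CPM elsewhere, so that its AP libraries differed widely among themselves. In every group of the reanalysed set its first library was the higher, with 9.91 and 0.203 CPM in CD29 and 9.18 and 0.125 CPM in DN. The cause was not tested. Ccl22, a Ccr4 ligand, was at 0 to 22.03 CPM and Ccl25, a Ccr9 ligand known from gut and thymus, at 1.33 to 28.6 CPM over the 14 libraries. Ccl17, Ccl20, Ccl27a, the tested Ccl21a entry and Ccl1 stayed at or below 6.83 CPM in every library. Xcl1 was at 0.152 to 0.652 CPM in the AP libraries and 0 elsewhere, and was not tested. Ccl21a and Ccl27a have near-identical copies in the genome, so their values are uncertain. Genes on the opposite strand also overlap Ccl27a (Il11ra1), Ccl25 (Elavl1, at 29.9 to 149.2 CPM), Cxcl16 (Zmynd15, at 0 to 19.7 CPM), Ccl6 (E230016K23Rik, at 0 to 2.27 CPM) and Ccl2 (Gm17268, at 0 in all libraries).

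The remaining ligands act on eosinophils or have broad targets. Ccl11 (chromosome 11, 82057823 to 82062955), the eosinophil attractant eotaxin, was at 193 and 352 CPM in AP_CD9Low, 104 and 172 CPM in AP_CD9High, 20.1 and 28.6 CPM in CD29 and 26.04 and 27.5 CPM in DN. All AP libraries were above all CD29 and DN libraries. Against AP, Ccl11 was lower in CD29 (log2 fold change -3.0, SE 0.37, adjusted p = 0.000495) and in DN (log2 fold change -2.86, SE 0.37, adjusted p = 0.000634), in every alternative setting of both comparisons. In the new set it was at 18.3 and 30.5 CPM in Adipocyte, 30.3 and 29.1 CPM in AdipoqTraced and 63.2 and 83.9 CPM in CD26. Ccl11 was called in CD26 against Adipocyte (log2 fold change 1.59, SE 0.38, adjusted p = 0.0135), but not without Adipocyte replicate 1 or CD26 replicate 2 (log2 fold change 1.37 to 1.42, adjusted p = 0.0718 to 0.0739).

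Cxcl14, a ligand known from normal skin, was at 27.2 to 131 CPM in AP and 1.41 to 61.3 CPM elsewhere. Ccl24, a further eosinophil attractant, was at 0 to 15.9 CPM over the 14 libraries. Neither was called. The 13 genes at 0 in every library were both Ccl19 entries, 1 of the Ccl21a entries, the 3 Ccl21b entries, Ccl21c, Ccl27b, Ccl28, Ccl26, both Ccl27 entries and Cxcl17.

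**Figure D4:**
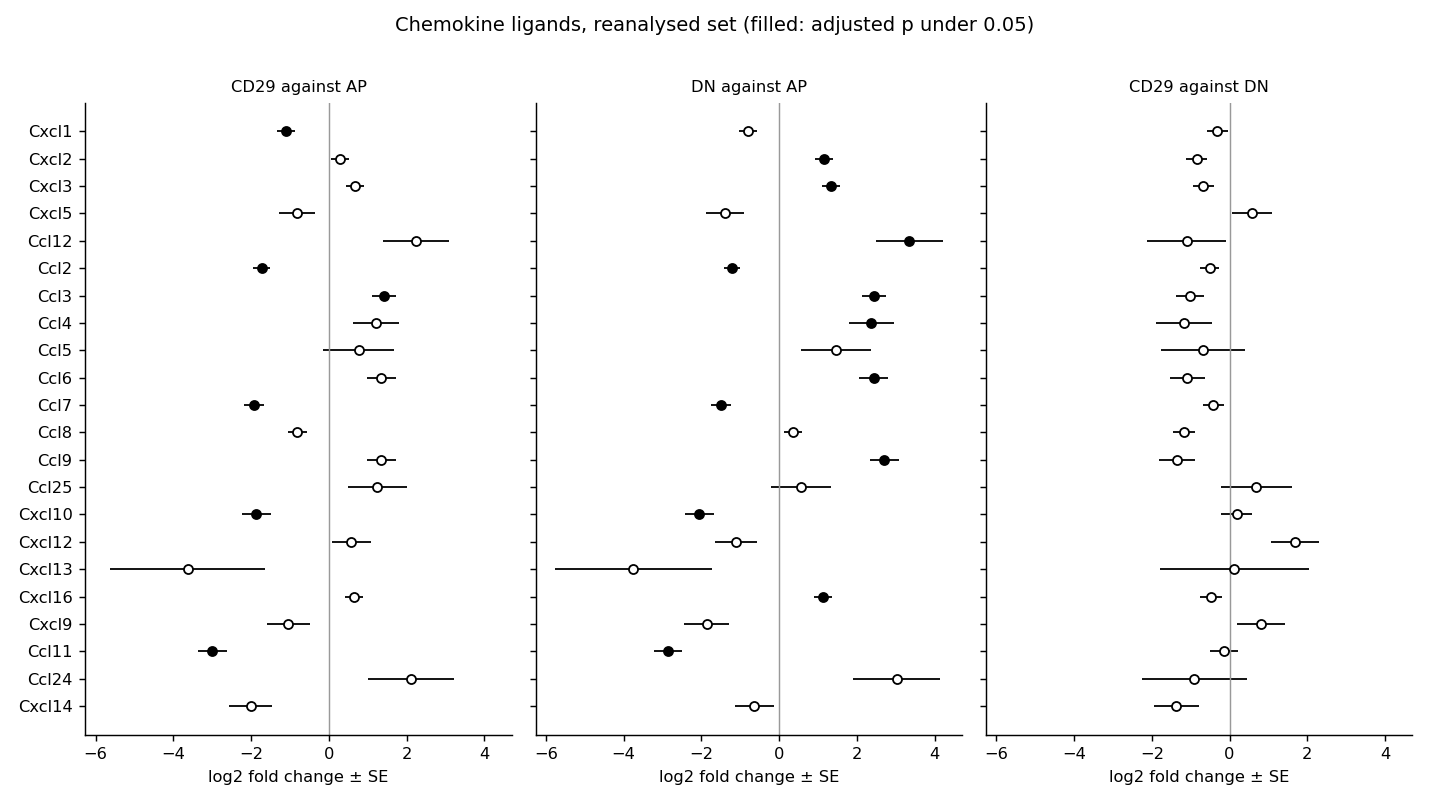
Log2 fold changes (points) with SE (bars) of 22 chemokine ligands in 3 comparisons of the reanalysed set, on a common linear axis; filled points have an adjusted p under 0.05, and 7 ligands of low level are left out. Ccl2, Ccl7, Ccl11 and Cxcl10 are filled to the left of 0 in both comparisons with AP, Ccl3 to the right in both, Ccl6 and Ccl9 to the right in DN against AP, and no point is filled in CD29 against DN.

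No ligand was called between the 2 AP populations, which were sorted by CD9. Cxcl1 (log2 fold change 0.09, SE 0.26, adjusted p = 1), Ccl7 (log2 fold change -0.36, SE 0.27, adjusted p = 1) and Cxcl2 (log2 fold change 0.45, SE 0.27, adjusted p = 1) missed the threshold in AP_CD9High against AP_CD9Low, and the level of Ccl2 overlapped between the groups. The value of Cxcl12 (log2 fold change -2.14, SE 0.62, adjusted p = 1) was -0.51, adjusted p = 1 without the AP_CD9Low library that stood at 391.9 CPM. Cxcl12, Ccl11 and Ccl9 were at an unadjusted p under 0.05, 3 of 29, a count without the share of all genes beside it. DESeq2's Wald test called 0, and edgeR without the filter on low counts called 2, Cxcl12 and Cxcl13.

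CD29 and DN, both set against AP above, were also compared with each other. All 10 monocyte ligands had a negative log2 fold change in CD29 against DN, with a median of -1.05 beside an all-gene median of 0.00, but none was called. The lean was not limited to this class, as 22 of the 29 ligands were negative, with a median of -0.67. Ccl2 (log2 fold change -0.52, SE 0.23, adjusted p = 0.975), Ccl7 (log2 fold change -0.42, SE 0.27, adjusted p = 0.977), Cxcl2 (log2 fold change -0.85, SE 0.27, adjusted p = 0.842) and Ccl6 (log2 fold change -1.08, SE 0.45, adjusted p = 0.975) all missed the threshold, as did Ccl8, Ccl3 and Ccl9. At an unadjusted p under 0.05 there were 9 of 29, DESeq2's Wald test called 1 (Ccl8, lower in CD29), and edgeR without the filter on low counts called 2, Ccl9 and Cxcl12. For these counts the shares of all genes are not given here, so they do not set the ligands apart from other genes. Cxcl1 overlapped between the groups.

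Macrophage and monocyte markers moved with part of the ligands. The 12 markers summed to 934 and 1925 CPM in Adipocyte, 3485 and 2336 CPM in AdipoqTraced and 4181 and 2873 CPM in CD26. Among the reanalysed libraries they summed to 1153 and 1087 CPM in AP_CD9Low, 2247 and 1902 CPM in AP_CD9High, 4058 and 3653 CPM in CD29 and 9798 and 8647 CPM in DN. Of the 12, 4 were called higher in AdipoqTraced and 5 in CD26 against Adipocyte, and 8 in CD29 and 11 in DN against AP, while 1 was lower in AdipoqTraced than in CD26. Beside these and the marker counts that follow, 7.5% and 6.76% of all genes were called higher in AdipoqTraced and CD26 against Adipocyte. Against AP, 1.07% were higher in CD29 and 2.29% in DN, and 0.511% were lower in AdipoqTraced than in CD26. None of the 12 was at 0 in any library.

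The order AP_CD9Low, AP_CD9High, CD29, DN of this sum is also that of Ccl3, Ccl4, Ccl6, Ccl9, Ccl12, Ccl24 and Cxcl3, with no overlap between groups. The share of all genes in this order is not given here, so the order cannot be read as particular to these ligands. The part of the marker-bearing cells in the levels of Ccl3, Ccl4, Ccl6, Ccl9, Ccl12, Cxcl2, Cxcl3 and Cxcl16 in DN was not tested. Ccl2, Ccl7, Ccl11, Cxcl1 and Cxcl10 had their highest values of the set in the AP libraries, where the sum was 1087.0 to 2246.7 CPM and lowest. Neutrophil markers summed to 567 and 222 CPM in DN and 38.1 to 83.2 CPM in AP, with 3 of 6 tested called higher. In the new set their sum was 72.8 and 36.15 CPM in Adipocyte, against 109.4 to 212.4 CPM in AdipoqTraced and CD26. Against Adipocyte, 1 of the 6 was called higher in either group. Mast cell markers summed to 210.0 and 240.5 CPM in DN and 0 to 6.63 CPM in AP, with 3 of 5 called higher in DN and 3 of 5 in CD29.

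Markers of skin cells other than leukocytes moved in the same comparisons. Pericyte markers summed to 333 and 418 CPM in CD29, 143 and 179 CPM in DN and 59.7 to 102 CPM in AP, with 4 of 4 called higher in CD29 and 3 of 4 in DN. Keratinocyte markers summed to 30.0 and 175 CPM in CD29, 63.1 and 1386 CPM in DN and 6.19 to 27.3 CPM in AP, with 2 of 4 called higher in DN. The 2 DN libraries differed widely in the keratinocyte sum. Fibroblast markers summed to 39725 and 33311 CPM in CD29, 39389.5 and 33635 CPM in DN and 69468 to 71074 CPM in AP. In each comparison 2 of 5 were called lower, beside 1.01% of all genes in CD29 and 1.08% in DN. In the new set 4 of 5 fibroblast markers were called higher in AdipoqTraced and in CD26 than in Adipocyte. Keratinocyte markers there summed to 37.1 and 80.7 CPM in Adipocyte, 481 and 259 CPM in AdipoqTraced and 358 and 1061 CPM in CD26. Of these 4 markers, 1 was called higher in either group. The part of these cells in the ligand levels was not tested.

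**Figure D5:**
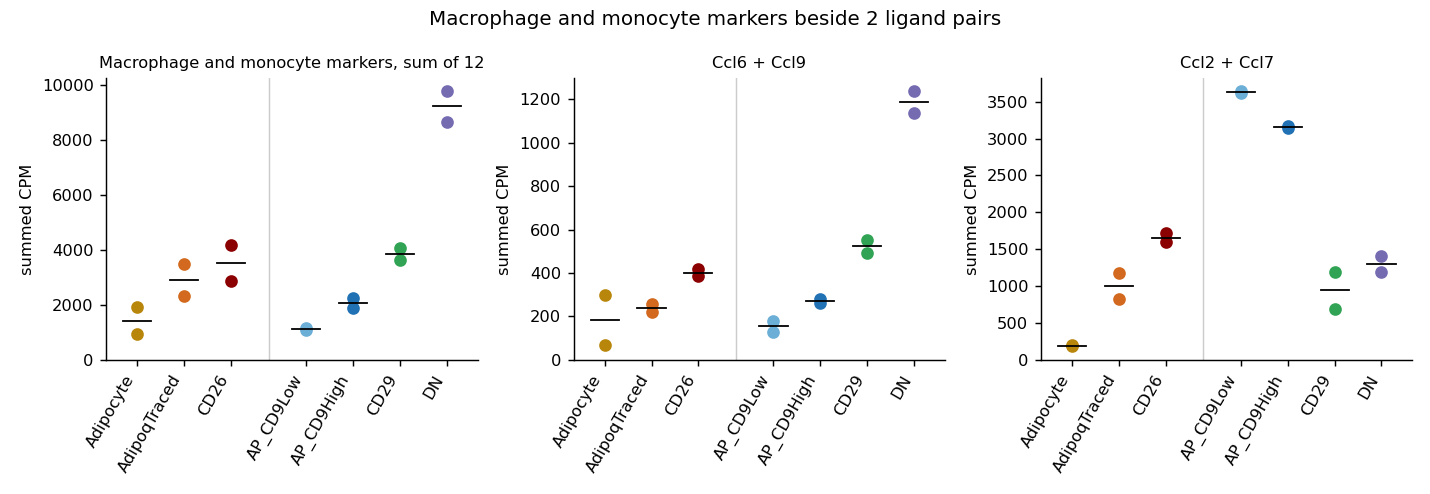
Summed CPM after TMM scaling in each library (points) and the group mean (bar) for 12 macrophage and monocyte markers, for Ccl6 with Ccl9 and for Ccl2 with Ccl7, on linear axes from 0 with a separate scale per panel. In the reanalysed set, to the right of the grey line, DN is highest for the markers and for Ccl6 with Ccl9, while the AP libraries are highest for Ccl2 with Ccl7.

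The signalling receptors that read these ligands are made mainly by leukocytes. Of 18 receptor genes 13 were tested. In AdipoqTraced against Adipocyte 1 was called higher (7.5% of all genes), in CD26 against Adipocyte 2 (6.76%) and in DN against AP 3 (2.29%). None was called lower and none was called elsewhere. Cxcr4, the receptor of Cxcl12, was at 1.17 and 6.25 CPM in Adipocyte, 134 and 57.5 CPM in AdipoqTraced and 83.3 and 66.8 CPM in CD26. It was called against Adipocyte in AdipoqTraced cells (log2 fold change 4.66, SE 0.67, adjusted p = 0.000382) and in CD26 (log2 fold change 4.31, SE 0.66, adjusted p = 0.000636). Ccr1 (log2 fold change 2.38, SE 0.58, adjusted p = 0.0384) and Cx3cr1 (log2 fold change 3.78, SE 0.97, adjusted p = 0.0483) were called in DN against AP. For Ccr1 the call was lost without any 1 of the 4 AP or 2 DN libraries (log2 fold change 1.87 to 2.75, adjusted p = 0.0512 to 0.354), and for Cx3cr1 without any 1 of the 4 AP or 2 DN libraries (log2 fold change 3.50 to 4.18, adjusted p = 0.115 to 0.263).

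Atypical receptors bind chemokines without the usual G-protein signal, and all 5 were tested. Ackr3, which takes up Cxcl12, was at 606 and 691 CPM in AP_CD9Low, 506 and 499 CPM in AP_CD9High, 83.97 and 78.6 CPM in CD29 and 186 and 116 CPM in DN. It was lower than in AP in CD29 (log2 fold change -2.81, SE 0.29, adjusted p = 0.000147) and in DN (log2 fold change -1.92, SE 0.27, adjusted p = 0.00122), and higher than in Adipocyte in AdipoqTraced cells (log2 fold change 1.74, SE 0.30, adjusted p = 0.00145) and in CD26 (log2 fold change 2.49, SE 0.31, adjusted p = 0.00011). The DN call was lost with a replicate block by label number (log2 fold change -1.61). Ccrl2, which binds chemerin, was higher in CD26 than in Adipocyte (log2 fold change 2.58, SE 0.52, adjusted p = 0.00474), though not in a fit of the new set alone (2.59, adjusted p = 0.0611), and in DN than in AP (log2 fold change 2.13, SE 0.40, adjusted p = 0.00763), the latter not without DN replicate 1 (log2 fold change 1.78, adjusted p = 0.0848). No other atypical receptor was called.

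The 15 genes of the NF-kappaB feedback and induction list were all tested. Of all genes, 7.5% were called higher in AdipoqTraced against Adipocyte, 6.76% in CD26 against Adipocyte and 2.29% in DN against AP. Against Adipocyte, 2 were higher in AdipoqTraced and 5 in CD26, Nfkb1 in both (2.22, SE 0.35, adjusted p = 0.000854 in AdipoqTraced, and 1.90, SE 0.35, adjusted p = 0.00246 in CD26). Bcl3, a nuclear partner of NF-kappaB, was higher in AdipoqTraced than in Adipocyte (log2 fold change 1.45, SE 0.30, adjusted p = 0.00534), though not in a fit of the new set alone (1.45, adjusted p = 0.159). It was also higher than in CD26 (log2 fold change 1.37, SE 0.29, adjusted p = 0.0322), though not in that fit (1.37, adjusted p = 0.457) and not without AdipoqTraced replicate 1, CD26 replicate 1 or CD26 replicate 2 (log2 fold change 1.14 to 1.58, adjusted p = 0.0675 to 0.293). In CD26 against Adipocyte, Birc3 (log2 fold change 1.58, SE 0.36, adjusted p = 0.0104) was not called without Adipocyte replicate 1 or CD26 replicate 1 (log2 fold change 1.28 to 1.47, adjusted p = 0.0504 to 0.0678), nor Rel (log2 fold change 1.10, SE 0.28, adjusted p = 0.0196) without Adipocyte replicate 2, CD26 replicate 1 or CD26 replicate 2 (log2 fold change 0.95 to 1.15, adjusted p = 0.0649 to 0.0767). In DN against AP, 2 were higher, Nfkbie (log2 fold change 1.41, SE 0.26, adjusted p = 0.00727), though not without DN replicate 1 (log2 fold change 1.24, adjusted p = 0.168), and Rel (log2 fold change 0.94, SE 0.23, adjusted p = 0.0411), though not without any 1 of the 4 AP libraries or DN replicate 1 (log2 fold change 0.48 to 0.98, adjusted p = 0.0889 to 0.793). None of the 15 was called in CD29 against AP, AP_CD9High against AP_CD9Low or CD29 against DN, and the list's median was 0.37 and 0.11 against Adipocyte, beside 0.20 and 0.25 over all genes.

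Of the 12 genes whose products cut, shed or present chemokines, 5 were higher in AdipoqTraced and 6 in CD26 against Adipocyte, with none lower. Among the 6 was Dpp4 (log2 fold change 2.07, SE 0.43, adjusted p = 0.00547), a call lost in a fit of the new set alone. Dpp4 encodes CD26, the sort marker that names this group, so its call may follow from the sort alone. Of all genes, 7.5% and 6.76% were called higher in these comparisons. The heparan sulfate proteoglycan gene Sdc1, whose product holds chemokines at the cell surface, was called in AdipoqTraced cells (log2 fold change 4.13, SE 0.43, adjusted p = 2.62e-05) and in CD26 (log2 fold change 4.0, SE 0.42, adjusted p = 3e-05). The matrix protease gene Mmp14 was called in AdipoqTraced cells (log2 fold change 3.48, SE 0.54, adjusted p = 0.000827) and in CD26 (log2 fold change 3.03, SE 0.53, adjusted p = 0.00196), and Mmp2, whose product clips Ccl7, in both as well (2.09, SE 0.31, and 2.05, SE 0.31; adjusted p = 0.000466 and 0.000537).

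In the reanalysed set, Dpp4, which encodes CD26 and clips several chemokines including Cxcl10 and Cxcl12, was at 167 to 225 CPM in AP, 21.9 and 16.5 CPM in CD29 and 46.2 and 38.4 CPM in DN. Dpp4 was lower than in AP in CD29 (log2 fold change -3.30, SE 0.42, adjusted p = 0.000662) and in DN (log2 fold change -2.16, SE 0.39, adjusted p = 0.00604), the latter not without DN replicate 2 (log2 fold change -2.03, adjusted p = 0.0705). Mmp2 was lower than in AP in CD29 (log2 fold change -1.41, SE 0.27, adjusted p = 0.0141), though not without CD29 replicate 2 (log2 fold change -1.21, adjusted p = 0.189). Mmp9, a gelatinase known from myeloid cells, was higher than in AP in CD29 (log2 fold change 2.44, SE 0.55, adjusted p = 0.0325), though not without any 1 of the 4 AP libraries or CD29 replicate 2 (log2 fold change 2.05 to 2.53, adjusted p = 0.0639 to 0.3), and in DN (log2 fold change 2.60, SE 0.55, adjusted p = 0.0162), though not without AP_CD9High replicate 2 or DN replicate 1 (log2 fold change 2.28 to 2.50, adjusted p = 0.0551 to 0.116). Sdc3, a further heparan sulfate proteoglycan gene, was higher in DN than in AP (log2 fold change 1.49, SE 0.29, adjusted p = 0.00906), though not without DN replicate 1 (log2 fold change 1.38, adjusted p = 0.0906). Mmp2 was the second gene lower in DN (log2 fold change -1.13, SE 0.27, adjusted p = 0.0337), though not without AP_CD9High replicate 1, DN replicate 1 or DN replicate 2 (log2 fold change -1.15 to -1.09, adjusted p = 0.0582 to 0.205). In all, 1 of the 12 was higher and 2 lower in CD29, and 2 higher and 2 lower in DN. Of all genes, 1.07% were higher and 1.01% lower in CD29, and 2.29% higher and 1.08% lower in DN.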

How the data were processed

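RNA was measured in 14 libraries of sorted mouse cells. Per the labels' protocols, the Absolutely RNA Nanoprep kit was used for extraction and the SMARTer Ultra Low RNA kit for cDNA, followed by Illumina library preparation. Per the submitters' processing notes, CASAVA 1.8.2, HISAT2 2.1, StringTie 1.3.3b, DESeq2 and the mm10 build were used, with no role or order named. Which annotation release, strand setting and filters were used is not given in the sources used here. In the deposited table, the authors give whole-number read counts per gene, without normalization, and 0 columns belonged to other samples. Symbols, coordinates and exon lengths came from GENCODE M21 on GRCm38 (mm10), which matched 52489 of 52636 identifiers with version numbers ignored, and promoters came from RefSeq on GRCm38.p6. Of 39 symbols 27 had a promoter there.

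Counts were tested with edgeR 4.0.16 in R 4.3.3 (TMM scaling, filterByExpr by group, estimateDisp, glmQLFit with robust = TRUE and legacy = TRUE, glmQLFTest, two-sided). One coefficient per group was fitted over all 14 libraries, with 7 residual degrees of freedom and a median prior of 6.82. P-values were adjusted by Benjamini-Hochberg over 18394 genes and called under 0.05. The older form of the spread estimate (legacy = TRUE) was chosen after results of both forms were known, because on simulated counts without changes its p-values held their level at these unequal depths and those of the newer form did not. SE was obtained as the size of the log2 fold change over the root of its F statistic. AP weighs AP_CD9Low and AP_CD9High by 0.5 each. A level is CPM from edgeR after TMM scaling. Low counts limit precision most in Adipocyte, which had 2952186 and 3255546 counts outside the mitochondrial genome. With 2 libraries a group, an exact permutation test could not go below p = 0.333.

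The text names every ligand called in a comparison, the 3 highest of each group, the highest of each class, and up to 3 called genes of each other list with the smallest p, except 1 gene that is not reported here. Uncalled values of 14 further pairs of ligand and comparison, Mmp2 in DN, and Dpp4 in CD26 against Adipocyte, were picked once their values were known. The ligands, lists and markers were chosen with earlier results of these data known. Alternatives were other scalings, no filter on low counts, the Wald test of DESeq2 1.42.0, fits of a set alone, replicate blocks, each library left out and, added after the data were seen, legacy = FALSE.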

Additional observations from a re-analysis of the deposited data

Results flagged for a closer look

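Among the 27 ligands that were not equal in all 4 AP libraries, 2 had a library far from the other 3, where chance gives about 1 in 20. That rate assumes libraries that vary alike, whereas these come from 2 sorted groups. Cxcl12 was at 391.9 CPM in the second AP_CD9Low library, against 42.7 to 76.6 CPM in the other AP libraries. Ccl1 was at 0.690 CPM in the second AP_CD9High library, from 18 reads, and at 0 in the other AP libraries. A gene counted in 1 of the 4 alone is always flagged, so the rate does not apply to it. The cause was not tested in either case.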

How the results depend on the processing

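Of the 42 ligand calls, 19 were kept in every alternative run, and 23 were lost in at least 1. Of the 23, 1 also reversed: Cxcl10 in AdipoqTraced against Adipocyte was at 0.21, adjusted p = 0.722 with CPM on the total count alone. Counts of called ligands moved in these settings, where the cause was not tested and the share of all genes called is not given here. In AdipoqTraced against Adipocyte (10), 16 were called with the total count alone and 6 in a fit of the new set alone. In AdipoqTraced against CD26 (1), 4 were called without the filter on low counts, 5 by DESeq2, 3 with legacy = FALSE and 0 in the new set alone. In AP_CD9High against AP_CD9Low (0), 2 were called without the filter. In CD29 against AP (6), 10 were called without the filter, 10 by DESeq2, 12 in the reanalysed set alone and 11 with legacy = FALSE. In CD29 against DN (0), 2 were called without the filter and 1 by DESeq2. Leaving out each library in turn gave 7 to 13 in AdipoqTraced against Adipocyte, 10 to 17 in CD26 against Adipocyte, 1 in AdipoqTraced against CD26, 3 to 6 in CD29 against AP, 6 to 9 in DN against AP, and 0 in the other 2. Such fits assume that the lone library of a group varies like the other groups.

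Over all tested genes, libraries with the same title number did not deviate together (correlations of -0.028 to 0.049). These numbers were therefore not taken to pair libraries. Single ligands could still differ by title number. In every group of the reanalysed set Cxcl13 was higher in the first library and Ccl22 in the second, and the cause was not tested. AP_CD9Low, AP_CD9High and CD29 also share both label numbers (correlations of 0.008 to 0.046). The second DN library has a label number of its own, so this check does not cover label numbers in DN. With a replicate block by title number, 10, 13, 1, 0, 6, 10 and 0 ligands were called in the 7 comparisons in the order of the report's first listing (AdipoqTraced and CD26 against Adipocyte, AdipoqTraced against CD26, AP_CD9High against AP_CD9Low, CD29 and DN against AP, CD29 against DN). With a replicate block by label number, 4 were called in DN against AP (12 without it), 6 in CD29 against AP and 0 in the other 2 comparisons of that set. In DN against AP, the ligands Ccl3, Ccl9, Ccl11 and Cxcl2 kept their calls in that fit. It put Ackr3 at -1.61 and Ccrl2 at 2.37, and neither was called. Only the second DN library carries its label number, so in that fit DN rests on its first library.

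With the total count alone, the mean summed level became 686.3 CPM in Adipocyte (2510.9 with TMM), 5854.8 in CD26 (6664.5), 13518.8 in AP_CD9Low (10671.7), 13151.8 in AP_CD9High (10355.6), 8907.2 in CD29 (5726.9) and 12614.7 in DN (8369.1). Without mitochondrial genes in the total, the mean share of chemokine counts became 0.377% in Adipocyte (0.0686%), 0.616% in AdipoqTraced (0.477%) and 0.929% in CD26 (0.586%). Of 45 calls of other genes, 27 were lost in at least 1 alternative and 0 reversed. Depth limits the adipocytes most, and 2 libraries a group limit every comparison. Without unwounded skin, no value says what wounding changed.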

Other observations

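A few chemokines fell outside the symbol rule. Pf4 (Cxcl4), known from platelets and some macrophages, was at 15.5 and 15.2 CPM in Adipocyte, 89.2 and 102 CPM in AdipoqTraced and 113 and 57.5 CPM in CD26. In the reanalysed set Pf4 was at 55.5 and 77.4 CPM in AP_CD9Low, 122 and 134 CPM in AP_CD9High, 273 and 250.3 CPM in CD29 and 470.0 and 533 CPM in DN. The highest libraries were those of DN, with no overlap with any other group of that set. Pf4 was called higher in AdipoqTraced cells (log2 fold change 2.64, SE 0.32, adjusted p = 9.81e-05) and CD26 (log2 fold change 2.47, SE 0.32, adjusted p = 0.00016) against Adipocyte, and in CD29 (log2 fold change 1.51, SE 0.25, adjusted p = 0.00442) and DN (log2 fold change 2.44, SE 0.25, adjusted p = 0.00019) against AP, in every alternative setting. Macrophage and monocyte markers moved with it, and their part was not tested.

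Ppbp (Cxcl7), a platelet chemokine that gives rise to a neutrophil attractant, was at 48.8 and 43.2 CPM in CD26 and 0 to 22.97 CPM elsewhere. It was called in CD26 against Adipocyte (log2 fold change 5.07, SE 1.23, adjusted p = 0.0153), though not in a fit of the new set alone (5.06, adjusted p = 0.0631). Cxcl11, the third Cxcr3 ligand, is annotated as a polymorphic pseudogene and was at 0 to 5.14 CPM.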
